A study of Homo sapiens with 24 samples.

Results

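The aryl hydrocarbon receptor (AHR) and the CYP1 genes were examined in 3 human breast cancer cell lines, all positive for the estrogen receptor (ER+), grown in low or high glucose. The group held 8 of the 18889 genes in the deposited table and its members were found by symbol: AHR, AHRR, ARNT, ARNT2, CYP1A1, CYP1A2, CYP1B1 and TIPARP. The family was chosen by the changes between glucose conditions already seen in these data, chiefly that of CYP1A1, so the glucose changes of members are given below as a description and without p-values. The choice did not use differences in level between lines at low glucose, which were tested. The low glucose cultures in these tests were also the baseline of the changes that chose the family. The p-values between lines are therefore not fully independent of that choice. The lists of other pathway genes were also drawn up with earlier results of these data known, so the p-values of their genes are not independent evidence.

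The study cultured HCC1500, ZR-75-30 and MDA-MB-175 cells for 48 hours in medium with 5 mM glucose (LG, the control condition) or 25 mM glucose (HG, modelling hyperglycemia), with 4 cultures in each of the 6 groups. The methods describe medium without serum for such glucose experiments and a mannitol control for osmolarity in some of them, and the labels name no mannitol for these cultures. They also describe a period in low glucose for all cells, after which only the HG cells changed glucose level. The study's reagents list low and high glucose medium as separate products. Effects of glucose, of the medium product and of the switch cannot be told apart here. The 3 lines are established cell lines, and no source used here says whether the cultures of a group were started separately, so p-values measure only the spread between these cultures, which may be technical. All 7 luminal epithelial markers on a fixed list were above the detection floor in every group, and their summed normalized read counts ran from 24010 to 58040. They were 48980 to 53630 in ZR-75-30 at LG and 34880 to 40740 at HG. Of the markers of other cell types, the fibroblast list summed to between 78.12 and 289.4 with DCN under the floor in every group, the 2 of 3 endothelial markers in the table to at most 77.72 and TP63, the 1 of 3 basal markers in the table, to at most 15.34. CD14, the 1 of 4 haematopoietic markers in the table, was 0.4306 to 3.04 in HCC1500 at LG and 8.259 to 26.73 at HG. The part of these markers in the results below was not tested. The sequenced fragments were bulk RNA, so fewer expressing cells and less RNA per cell cannot be told apart in any value below.

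AHR is a ligand-activated transcription factor of the bHLH-PAS family. Without ligand it waits in the cytosol in a complex with HSP90, and with ligand it enters the nucleus, pairs with ARNT and binds short DNA elements that hold the letters GCGTG. CYP1A1 and CYP1B1, which encode enzymes that oxidize polycyclic hydrocarbons and also hydroxylate estradiol, are its classic targets, and AHRR and TIPARP are targets that in turn repress the receptor.

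The DNA upstream of the CYP1A1, CYP1B1 and TIPARP starts is shown because these 3 genes are textbook AHR targets and each had its own order of levels over the lines at LG, the low glucose condition. Each is the 300-base window with the most GCGTG matches on either strand within 1500 bases upstream of the gene's canonical transcript start in GRCh37, written 5′ to 3′ on the gene's own strand, with GCGTG and its reverse complement CACGC in capitals. The letters GCGTG also occur in the element bound by hypoxia-inducible factors, so a match does not tell these elements apart. The CYP1A1 window is chr15:75018830-75019129 on the minus strand, 961 to 1260 bases upstream of the start, and the CYP1B1 window is chr2:38304021-38304320 on the minus strand, 728 to 1027 bases upstream. The TIPARP window is chr3:156392079-156392378 on the plus strand and ends at the base before the start.
CYP1A1: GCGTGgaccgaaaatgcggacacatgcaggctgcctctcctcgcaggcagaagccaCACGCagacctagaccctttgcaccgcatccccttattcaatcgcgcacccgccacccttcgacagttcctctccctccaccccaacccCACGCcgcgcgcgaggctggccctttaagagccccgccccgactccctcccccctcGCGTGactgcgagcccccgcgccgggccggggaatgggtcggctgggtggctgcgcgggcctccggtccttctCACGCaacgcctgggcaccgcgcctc
CYP1B1: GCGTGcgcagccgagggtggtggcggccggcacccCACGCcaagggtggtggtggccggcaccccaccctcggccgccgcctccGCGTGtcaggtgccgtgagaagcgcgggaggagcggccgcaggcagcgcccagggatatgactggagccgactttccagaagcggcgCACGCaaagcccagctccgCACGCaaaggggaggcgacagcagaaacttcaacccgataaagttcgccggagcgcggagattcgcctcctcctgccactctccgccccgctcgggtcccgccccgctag
TIPARP: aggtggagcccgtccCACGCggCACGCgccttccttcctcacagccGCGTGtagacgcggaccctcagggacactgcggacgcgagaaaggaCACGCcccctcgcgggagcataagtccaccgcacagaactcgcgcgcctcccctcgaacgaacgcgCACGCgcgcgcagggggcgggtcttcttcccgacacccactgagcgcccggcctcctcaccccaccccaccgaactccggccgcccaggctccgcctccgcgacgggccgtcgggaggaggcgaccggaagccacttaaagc

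Each of these windows held 5 matches. Over the whole 1500 bases CYP1A1 had 10 matches, CYP1B1 had 7 and TIPARP had 6. Across the 17948 genes with such a window the median was 2 matches and 82.6% had at least 1. A count as high as that of CYP1A1 was found in 0.652% of genes, as high as that of CYP1B1 in 4.22% and as high as that of TIPARP in 8.25%. ARNT had 5 matches, AHRR and ARNT2 had 4 each and CYP1A2 had 1, while the AHR window had 0. These are matches of letters and not sites shown to be bound, and the comparison with all genes was not adjusted for base composition.

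Values are normalized read counts as deposited. Within a sample all of them were multiples of what 1 read was worth, and the reads recovered this way totalled 9140024 in the shallowest and 17998819 in the deepest sample. A detection floor of 3 reads corresponded to a value between 0.953 and 2.29 depending on the sample. In HCC1500 the LG cultures had 13190982 to 17998819 reads and the HG cultures 9423472 to 12140912, so depth did not overlap between the conditions of this line. One HCC1500 culture, HG replicate 3 (HG3), stood apart. Its mean Pearson correlation with the other cultures of its group was 0.944, against at least 0.99 within every other group, and 23.9% of its genes were over 1 log2 unit away from the average of those cultures, against at most 1.74% in any culture outside its group. Its departures ran with exon length across genes (Spearman's rho -0.68, a description, as genes are not independent replicates). Changes between glucose conditions in HCC1500 are therefore given with and without HG3. Between-condition differences are limma estimates of log2(value + 1), a scale that shrinks the changes of genes near the floor, and a gene was called at a Benjamini-Hochberg adjusted p under 0.05 over all genes tested.

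**Figure D1:**
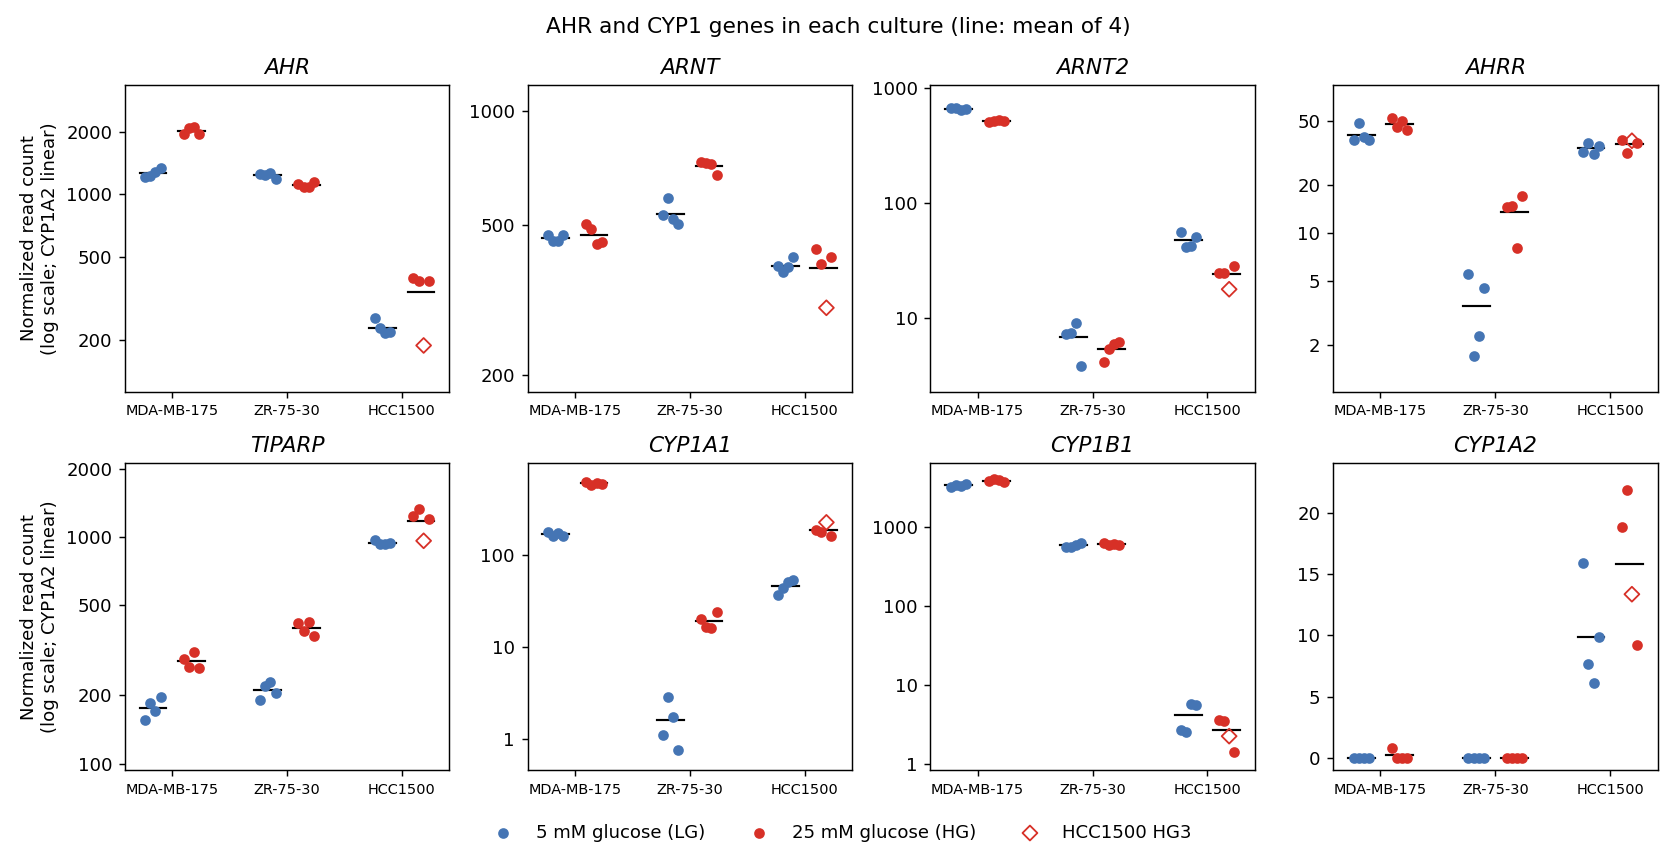
Normalized read count of each of the 8 genes (y axis, logarithmic except for CYP1A2, which is linear) in each of the 24 cultures, by cell line (x axis) and glucose (blue 5 mM, red 25 mM), with the mean of 4 cultures as a black line and HCC1500 HG3 as an open diamond. CYP1A1 at 25 mM lay above CYP1A1 at 5 mM in every line without overlap, while AHR lay above its LG values in MDA-MB-175 and below them in ZR-75-30.

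CYP1A1 (ENSG00000140465, chr15:75011883-75017869, minus strand, 7 exons), the most inducible of the CYP1 enzymes, was higher at HG in all 3 lines. In MDA-MB-175 its normalized read counts at LG were 175.4, 160.1, 172.5 and 159.2, and at HG they were 617.8, 578.8, 602.0 and 593.6. The groups lay far apart and neither had a stray culture. The means were 166.8 ± 8.33 and 598.0 ± 16.3 (SD, n = 4 each), a 3.59-fold higher level and a log2 change of 1.84 ± 0.05 (SE). In ZR-75-30 the gene was close to the floor at LG, with 1.108, 2.843, 1.709 and 0.7635, which came from 2, 5, 3 and 1 reads. At HG the values were 19.79, 16.2, 16.15 and 23.99, from 38, 24, 38 and 35 reads. The groups did not overlap, and the ratio of the means was 11.9 on 11 reads in all at LG. The fitted log2 change was 2.99 ± 0.30 and depended on the scale. Over the alternatives it ran from 1.54 with CPM scaling to 3.62 with a pseudocount of 0.1, and it was 1.86 with a pseudocount of 5. In HCC1500 the LG values were 36.1, 43.2, 50.62 and 53.83, and the HG values were 186.4, 176.1, 225.0 and 159.2. The 225.0 belonged to HG3, the highest culture of that group. The mean rose from 45.94 ± 7.92 to 186.7 ± 27.9, which was 4.06-fold, with a log2 change of 2.0 ± 0.16. Without HG3 it was 3.79-fold and 1.91 ± 0.12, and the groups still did not overlap.

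CYP1B1 (ENSG00000138061, chr2:38294652-38303293, minus strand, 3 exons) hydroxylates estradiol at a different ring position from CYP1A1 and is the CYP1 enzyme typical of extrahepatic tissue. Its level differed little between glucose conditions. In MDA-MB-175 the LG values were 3240.0, 3411, 3329 and 3500.0 and the HG values 3820.0, 3996, 3918 and 3713. The HG cultures all lay above the LG cultures, by 1.15-fold and a log2 change of 0.20 ± 0.04. In ZR-75-30 the groups overlapped, with 557.3 to 623.7 at LG and 582.6 to 626.5 at HG and a log2 change of 0.04 ± 0.05 that was not called. In HCC1500 only 7 to 15 reads were counted per LG culture and 3 to 7 per HG culture. The means there were 4.138 ± 1.78 and 2.659 ± 1.04, they overlapped, and a difference was not detectable at this depth (log2 change -0.47 ± 0.34, and -0.43 ± 0.37 without HG3).

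CYP1A2 (ENSG00000140505, chr15:75041186-75048948, plus strand, 7 exons), the liver-typical CYP1 enzyme, was at 0 reads in every MDA-MB-175 and ZR-75-30 culture except MDA-MB-175 HG replicate 1, which had 2 reads. It was therefore not tested in these lines. In HCC1500 its values were 15.96, 7.623, 6.136 and 9.904 at LG and 18.88, 21.89, 13.37 and 9.232 at HG. The groups overlapped and the log2 change of 0.64 ± 0.34 was not called, nor was the 0.69 ± 0.31 without HG3. CYP1A1 and CYP1A2 are close paralogs, and how the counting treated reads that match both is not given in the sources used here, so the split of reads between them is uncertain.

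AHR itself (ENSG00000106546, chr7:17338276-17385771, plus strand, 11 exons), the ligand-binding partner, moved in opposite directions in different lines. In MDA-MB-175 the LG values were 1208, 1217, 1284 and 1343 and the HG values 1943, 2072, 2093 and 1949. All HG cultures were above all LG cultures, by 1.59-fold and a log2 change of 0.67 ± 0.04. In ZR-75-30 the LG values were 1252, 1240.0, 1266 and 1178 and the HG values 1118, 1089, 1079 and 1145. Here all HG cultures were below all LG cultures, with a ratio of 0.898 and a log2 change of -0.16 ± 0.04. In HCC1500 the LG values were 254.6, 228.4, 214.7 and 218.8 and the HG values 396.4, 381.1, 187.9 and 384.5. The 187.9 was HG3, which lay below every LG culture while the other HG cultures lay above them. With HG3 the log2 change of 0.50 ± 0.23 was not called, and without it the change was 0.76 ± 0.06, 1.69-fold, and was called. CYP1A1 was thus higher at HG in ZR-75-30, where AHR was lower, and in MDA-MB-175, where AHR was higher. In the annotation 2373 exon bases of AHR are shared with an unnamed gene on the same strand, and that gene was not a row of the table.

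ARNT (ENSG00000143437, chr1:150782189-150849075, minus strand, 22 exons) is the nuclear partner that AHR needs to bind DNA. In ZR-75-30 its values were 529.1, 588.6, 517.8 and 500.8 at LG and 732.2, 730.4, 722.5 and 676.4 at HG, without overlap. The mean was 1.34-fold higher at HG, with a log2 change of 0.42 ± 0.05. In MDA-MB-175 the groups overlapped, between 452.1 and 470.7 at LG and between 444.7 and 502.6 at HG. In HCC1500 they also overlapped, with 373.8 to 411.2 at LG and 301.5 to 431.8 at HG, the 301.5 being HG3. The log2 change of -0.03 ± 0.12 turned to 0.08 ± 0.05 without HG3 and was not called either way.

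ARNT2 (ENSG00000172379, chr15:80696724-80890274, plus strand, 19 exons), a close relative of ARNT best known from the nervous system, was lower at HG in 2 lines. In MDA-MB-175 the LG values of 667.0, 666.0, 649.1 and 663.3 stood against 511.7, 515.2, 532.9 and 518.9 at HG. The spread within each group was under 2% of its mean, and the log2 change was -0.35 ± 0.04. In HCC1500 the LG values were 55.87, 41.29, 42.57 and 51.24 and the HG values 24.78, 24.87, 17.82 and 28.62. They did not overlap, and the log2 change was -0.97 ± 0.18, or -0.84 ± 0.14 without HG3. In ZR-75-30, with 5 to 16 reads per culture, the means of 6.882 ± 2.22 and 5.421 ± 0.897 overlapped.

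AHRR (ENSG00000063438, chr5:321829-438400, plus strand, 11 exons) encodes the AHR repressor, which competes with AHR for ARNT. In ZR-75-30 it was at 5.54, 1.706, 2.279 and 4.581 at LG, from 3 to 10 reads per culture, and at 14.58, 14.85, 8.075 and 17.13 at HG, from 19 to 28 reads. The groups did not overlap, and the ratio of the means was 3.87 with a log2 change of 1.74 ± 0.33. That change was 0.93 with CPM scaling, 1.13 with a pseudocount of 5 and 2.02 with a pseudocount of 0.1. MDA-MB-175 had 38.15 to 48.91 at LG and 44.16 to 52.84 at HG, and HCC1500 had 31.44 to 36.53 and 31.84 to 38.35. Both pairs overlapped, and neither log2 change, 0.22 ± 0.12 and 0.09 ± 0.13 (0.07 ± 0.13 in HCC1500 without HG3), was called. In the annotation 5555 exon bases of AHRR also belong to the readthrough transcript PDCD6-AHRR on the same strand, which was not a row of the table.

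TIPARP (ENSG00000163659, chr3:156392379-156424559, plus strand, 6 exons) encodes a mono-ADP-ribosyltransferase that dampens AHR signaling. In MDA-MB-175 its values were 156.1, 184.3, 170.2 and 195.8 at LG and 288.3, 265.8, 311.1 and 263.9 at HG. In ZR-75-30 they were 191.1, 220.1, 230.1 and 205.4 at LG and 417.1, 386.1, 420.3 and 367.3 at HG. Neither line showed overlap, with log2 changes of 0.68 ± 0.08 and 0.91 ± 0.06 and folds of 1.6 and 1.88. In HCC1500 the LG values of 966.9, 931.3, 934.9 and 944.3 stood against 1243, 1322, 961.6 and 1198. HG3, at 961.6, lay among the LG cultures. The log2 change of 0.31 ± 0.10 was not called with HG3, while without it the groups did not overlap and the change of 0.41 ± 0.03, 1.33-fold, was called.

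**Figure D2:**
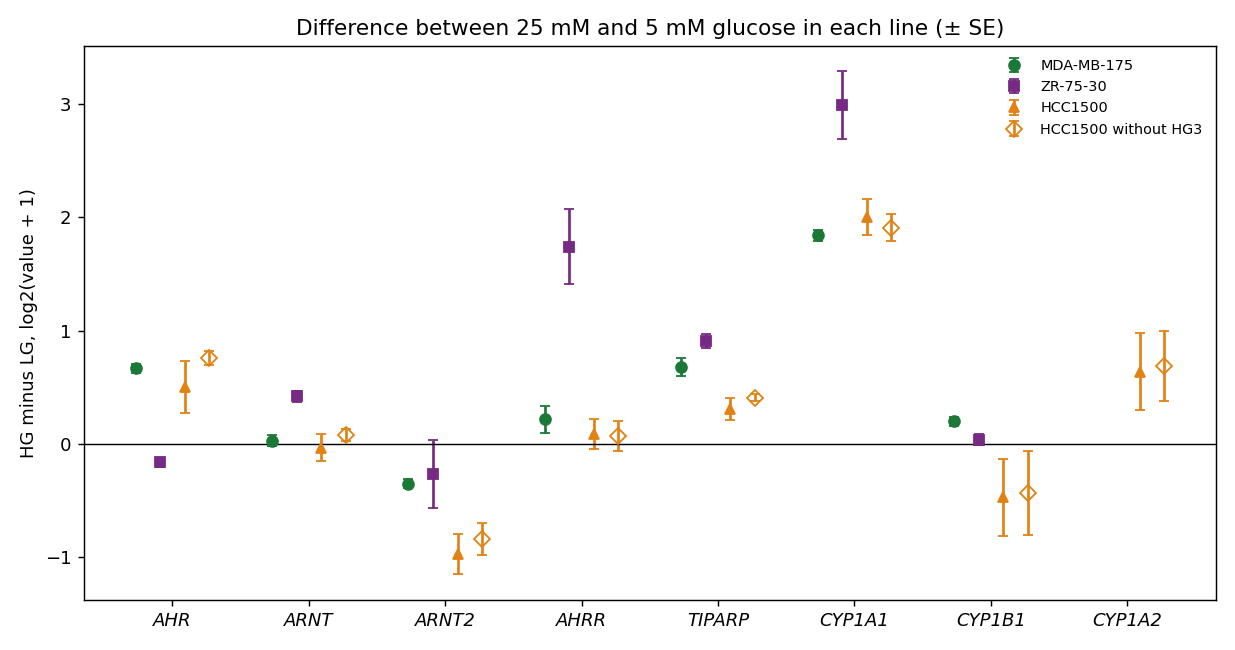
Difference between HG and LG on the log2(value + 1) scale (y axis) for each gene (x axis) and line, with bars of 1 SE from limma. HCC1500 is drawn with all cultures (filled triangles) and without HG3 (open diamonds). CYP1A1 was positive in all 3 lines, at 1.84, 2.99 and 2.0, and AHR was negative in ZR-75-30 only, at -0.16.

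Counted over the family, 4 of the 7 members tested in MDA-MB-175 were called higher at HG (AHR, CYP1A1, CYP1B1 and TIPARP) and 1 was called lower (ARNT2). Of all 17029 genes tested in that line, 11.9% were called higher and 13.7% lower. In ZR-75-30 4 of 7 were called higher (AHRR, ARNT, CYP1A1 and TIPARP) and 1 lower (AHR), where 23.4% of the 15834 genes tested were called higher and 22.7% lower. In HCC1500 1 of 8 was called higher (CYP1A1) and 1 lower (ARNT2), where 7.46% of 16361 genes were called higher and 13.0% lower. That split was 1221 higher and 2129 lower genes, and with median-of-ratios scaling it was 1723 and 1800. Without HG3 3 of 8 were called higher (AHR, CYP1A1 and TIPARP) and 1 lower (ARNT2), against 20.9% and 37.7% of 16235 genes. The median log2 change of all genes tested in HCC1500 was -0.06, and -0.12 without HG3. Groups did not overlap for 5 members in MDA-MB-175, where this held for 26.6% of all genes tested, for 5 in ZR-75-30 (42.0%) and for 2 in HCC1500 (32.4%), or 4 without HG3 (58.1%). Because the family was chosen on this contrast, nothing is read from these counts. The member calls of both other lines, and those of CYP1A1 and ARNT2 in HCC1500, kept their direction and their call under all 16 alternatives run in each line.

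The size of the glucose change was also set side by side over the 3 lines, again as a description. The highest and lowest log2 change differed by 0.83 in AHR, 1.65 in AHRR, 0.46 in ARNT, 1.15 in CYP1A1 and 0.60 in TIPARP, and by 0.91, 1.68, 0.39, 1.15 and 0.50 without HG3. They differed by 0.71 in ARNT2 and 0.67 in CYP1B1, or 0.58 and 0.62 without HG3. An F test for such differences in a model of all 24 cultures rests on the same values that chose the family. It called the first 5 of these genes among the 8 members, with and without HG3, where 29.3% of 18144 genes were called with it and 48.6% of 18127 without it, and nothing is read from that count. The CYP1A1 call was lost with a pseudocount of 5 or with CPM scaling, and that of ARNT by edgeR, with median-of-ratios scaling and with CPM scaling.

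At LG the lines differed in the levels of most members, by amounts that varied widely from gene to gene. CYP1B1 was the most unequal member. Its mean was 3370 ± 111 in MDA-MB-175, against 583.8 ± 31.9 for ZR-75-30 and 4.138 ± 1.78 for HCC1500, so that the first stood 814-fold and the second 141-fold above HCC1500. Both differences were called in the limma fit (adjusted p = 7.5e-22 and 2.1e-19), as was the 5.77-fold difference between MDA-MB-175 and ZR-75-30 (adjusted p = 3.8e-11). The folds against HCC1500 rested on 43 HCC1500 reads in all. Their fitted log2 differences were 9.42 (8.32 to 9.78 over the alternatives) and 6.90 (5.57 to 7.34). CYP1A1 followed another order, with MDA-MB-175 at 166.8, HCC1500 at 45.94 and ZR-75-30 at 1.606. The first step was 3.63-fold and the second 28.6-fold (limma adjusted p = 3.9e-09 and 1.2e-15). The second rested on 11 ZR-75-30 reads in all. Its fitted log2 difference, ZR-75-30 minus HCC1500, was -4.22 and ran from -4.89 to -2.89 over the alternatives. CYP1A2 was found at LG in HCC1500 alone, where its mean was at least 25.4-fold above MDA-MB-175 and at least 21.9-fold above ZR-75-30, taking 3 reads over each group of 4 cultures as the floor.

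AHR was nearly equal in MDA-MB-175 (1263 ± 63.3) and ZR-75-30 (1234 ± 38.9), whose values overlapped (limma adjusted p = 0.871, log2 difference 0.03 ± 0.15). The sign of that small difference turned with median-of-ratios scaling, edgeR and DESeq2, with values from -0.06 to 0.27 over all alternatives. HCC1500 had the lowest AHR, at 229.1 ± 17.9, 5.51-fold below MDA-MB-175 and 5.39-fold below ZR-75-30 (limma adjusted p = 6.3e-13 and 7.2e-13). TIPARP had the reverse order. It was highest in HCC1500, at 944.3 ± 16.0, which was 5.35-fold above MDA-MB-175 and 4.46-fold above ZR-75-30 (limma adjusted p = 6.9e-17 and 5.4e-16). ZR-75-30 and MDA-MB-175 overlapped in TIPARP, at 211.7 ± 17.1 and 176.6 ± 17.2. The limma fit called that 1.2-fold difference (adjusted p = 0.013), and it was not called with CPM scaling (log2 difference -0.03) or without MDA-MB-175 LG replicate 1 (-0.20) or ZR-75-30 LG replicate 3 (-0.22).

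The partners of AHR were unlike each other. ARNT was similar in all lines, with 461.2 ± 10 in MDA-MB-175, 534.1 ± 38.2 for ZR-75-30 and 390.0 ± 15.6 for HCC1500. All 3 pairs were called (limma adjusted p = 0.0285, 0.0106 and 3.1e-05 for MDA-MB-175 against ZR-75-30, MDA-MB-175 against HCC1500 and ZR-75-30 against HCC1500), none was called with CPM scaling, and with it the sign of the first turned, from -0.21 to 0.03. That first call was also lost without MDA-MB-175 LG replicate 2 or 3 (-0.20 each) or ZR-75-30 LG replicate 2 (-0.16). ARNT2 ranged from 661.3 ± 8.31 in MDA-MB-175 through 47.74 ± 6.99 in HCC1500 to 6.882 ± 2.22 in ZR-75-30. The steps were 13.9-fold and 6.94-fold (limma adjusted p = 5.3e-15 and 2.9e-12). The second rested on 47 ZR-75-30 reads in all, with a log2 difference, ZR-75-30 minus HCC1500, of -2.83 to -2.16 over the alternatives. AHRR was 9.61-fold higher in HCC1500 and 11.7-fold higher in MDA-MB-175 than in ZR-75-30 (limma adjusted p = 3.1e-11 and 9.8e-12). Both folds rested on 23 ZR-75-30 reads in all. Over the alternatives the log2 difference ran from -3.38 to -2.21 for ZR-75-30 minus HCC1500 and from 2.38 to 3.66 for MDA-MB-175 minus ZR-75-30. MDA-MB-175 and HCC1500 did not differ past the threshold in AHRR by limma (1.22-fold, log2 difference 0.27 ± 0.23, adjusted p = 0.281), while edgeR (0.37) and DESeq2 (0.33) on the recovered reads called the difference.

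Such calls were common across the transcriptome. At LG 63.8% of 18144 genes were called between MDA-MB-175 and ZR-75-30, 72.6% between MDA-MB-175 and HCC1500 and 73.0% between ZR-75-30 and HCC1500. The members called numbered 6, 7 and 8 of 8 in that order, so the size of a difference says more than its call. Leaving out HG3, which enters these contrasts only through the shared spread, changed no member's call. Scaling bears on these contrasts. The median log2 difference of all genes between MDA-MB-175 and ZR-75-30 was 0.179, and 0.287 with CPM scaling, and 7159 genes were called higher and 4408 lower in MDA-MB-175, against 8427 and 3219 with CPM scaling. Between ZR-75-30 and HCC1500 the median was -0.232, with -0.112 under median-of-ratios and -0.433 under CPM scaling, and the split was 5269 and 7976 genes, against 3909 and 9360 with CPM scaling.

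**Figure D3:**
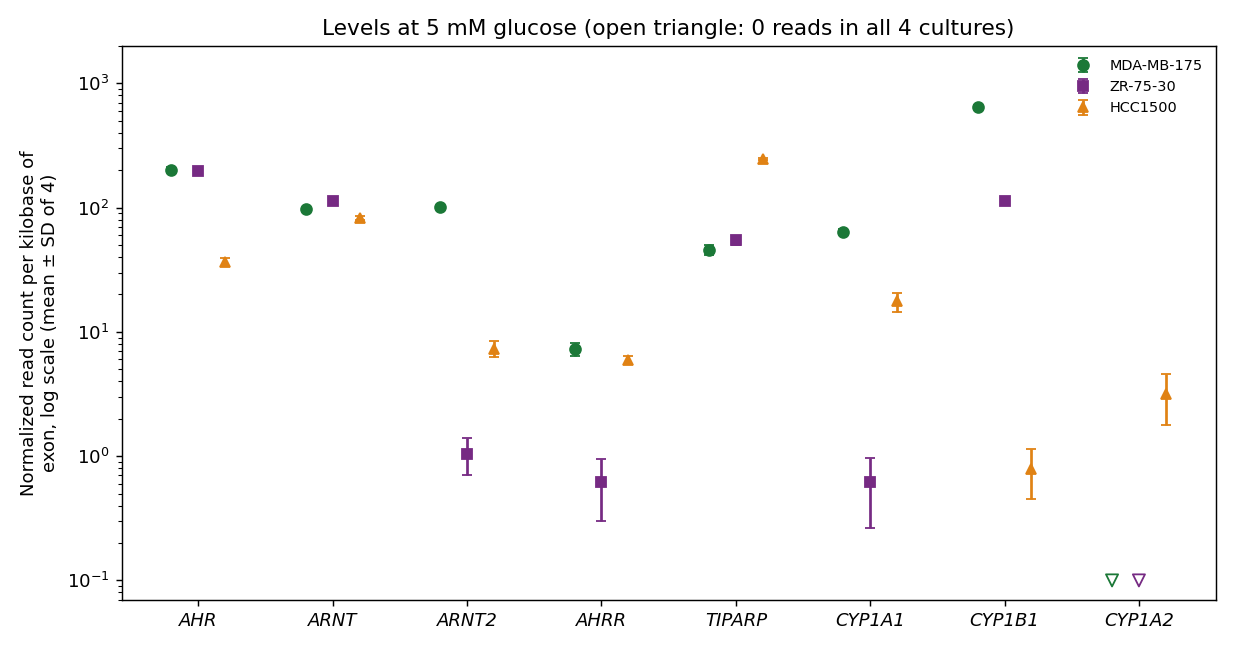
Mean normalized read count per kilobase of canonical transcript exon at 5 mM glucose (y axis, logarithmic), with bars of 1 SD over 4 cultures, for each gene (x axis) and line. CYP1B1 fell from 646 in MDA-MB-175 to 0.793 in HCC1500, while ARNT stayed between 82.8 and 113 in all lines; open triangles mark CYP1A2, which had 0 reads in MDA-MB-175 and ZR-75-30.

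Levels of different genes were set side by side per kilobase of exon, with the length of each gene's canonical transcript. This comparison is rough, as the counting may have used other exons and some members share exon bases with other genes. On this measure CYP1B1 was the most abundant member in MDA-MB-175 at LG (646 ± 21.3 per kb), followed by AHR (202 ± 10.1). ARNT2 (101 ± 1.27) and ARNT (97.9 ± 2.13) overlapped, and CYP1A1 (64.1 ± 3.2) and TIPARP (45.7 ± 4.46) came next, with AHRR at 7.31 ± 0.899. In ZR-75-30 AHR led (198 ± 6.23 per kb), ARNT (113 ± 8.1) and CYP1B1 (112 ± 6.11) did not differ beyond their spread, and TIPARP followed (54.8 ± 4.42). ARNT2, AHRR and CYP1A1 stood at 1.05 ± 0.34, 0.623 ± 0.323 and 0.617 ± 0.351 per kb there, again not apart beyond their spread. In HCC1500 TIPARP led (245 ± 4.14 per kb), before ARNT (82.8 ± 3.31), AHR (36.7 ± 2.87) and CYP1A1 (17.6 ± 3.04), and CYP1B1 was last at 0.793 ± 0.341. At HG CYP1A1 reached 230 ± 6.26 per kb in MDA-MB-175, above ARNT and below AHR, 71.7 ± 10.7 in HCC1500 (66.8 ± 5.27 without HG3) and 7.31 ± 1.43 in ZR-75-30. Among 17956 genes with an exon length, its level per kb stood at the 67.1 percentile at LG and the 88.7 percentile at HG in MDA-MB-175. The same step was from 44.3 to 69.7 in HCC1500 (69.5 without HG3) and from 21.9 to 39.0 in ZR-75-30.

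The counts of the 7 pathway lists that follow stand against the same background as those of the family. Of all genes tested, 11.9% rose and 13.7% fell in MDA-MB-175, 23.4% rose and 22.7% fell in ZR-75-30, and HCC1500 had 7.46% and 13.0%, or 20.9% and 37.7% without HG3. Over all genes the median log2 change was -0.02, 0.01 and -0.06 in that order, and -0.12 in HCC1500 without HG3. A count near these shares is not a result about its list.

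Genes of other AHR-responsive functions were counted from a fixed list of 16, all of them in the table. In MDA-MB-175 6 of the 15 tested rose and 1 fell, with a median log2 change of 0.27 against -0.02 for all genes. The largest rises were UGT1A6, a glucuronosyltransferase (9.53 ± 5.96 to 28.57 ± 11.7, log2 change 1.55 ± 0.40, limma adjusted p = 0.00846), and AREG, the EGF receptor ligand amphiregulin (70.06 ± 9.51 to 152.6 ± 16.4, 1.12 ± 0.10, limma adjusted p = 8.6e-07). UGT1A6 shares exons with the other genes of the UGT1A locus, so its count is uncertain, and so is that of AREG, which has a near-identical copy, AREGB, in the table. GSTA1, a glutathione transferase, fell from 5.652 ± 0.484 to 2.337 ± 0.296 (limma adjusted p = 0.0105). In ZR-75-30 4 of 9 rose and 1 fell, with a median of 0.44 against 0.01 for all genes. AREG went from 10.15 ± 8.49 to 46.59 ± 3.77 (log2 change 2.75 ± 0.60, limma adjusted p = 9.7e-04) and NEDD9, a focal adhesion scaffold, from 244.6 ± 5.31 to 552.9 ± 25.9 (1.17 ± 0.05, limma adjusted p = 1.6e-12). In HCC1500, where AREG was highest, its mean was 4278 ± 57 at LG and 4010 ± 1390 at HG. The log2 change there was -0.15 ± 0.19 and was not called, while without HG3 it was -0.37 and was called lower (limma adjusted p = 3.4e-09).

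In HCC1500 5 of 12 rose and 0 fell by limma (1 fell at an unadjusted p under 0.05, and 0 by edgeR and DESeq2), with a median of 0.16 against -0.06 for all genes, and without HG3 5 rose and 3 fell, with a median of 0.06 against -0.12. The largest rises were CYP2S1, an AHR-inducible P450 enzyme (59.28 ± 6.73 to 233.1 ± 50.7, log2 change 1.94 ± 0.16, limma adjusted p = 1.3e-04), and EREG, the EGF receptor ligand epiregulin (3.863 ± 1.41 to 10.58 ± 2.23, 1.28 ± 0.26, limma adjusted p = 0.00996). Both were also called without HG3, at 1.80 and 1.31. NQO1 and ALDH3A1, which with CYP1A1 belong to the classic AHR gene battery, had other patterns. NQO1, a quinone reductase that NFE2L2 also drives, had a log2 change of -0.04 ± 0.04 in MDA-MB-175 (limma adjusted p = 0.506), fell in ZR-75-30 (-0.28 ± 0.04, limma adjusted p = 1.2e-05) and had 0.22 ± 0.18 in HCC1500 (limma adjusted p = 0.461), or 0.01 without HG3. ALDH3A1, an aldehyde dehydrogenase, had 0.05 ± 0.18 in MDA-MB-175 and rose in ZR-75-30 from a level under the floor (0.2846 to 1.951, limma adjusted p = 0.0457). In HCC1500 its log2 change was -1.01 ± 0.59, and -1.55 without HG3, when it was called lower (limma adjusted p = 0.00351). NFE2L2, the antioxidant factor, rose in MDA-MB-175 (0.21 ± 0.04, limma adjusted p = 0.00144) and HCC1500 (0.29 ± 0.07, limma adjusted p = 0.0206, and 0.26 without HG3) and had -0.05 ± 0.04 in ZR-75-30.

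**Figure D4:**
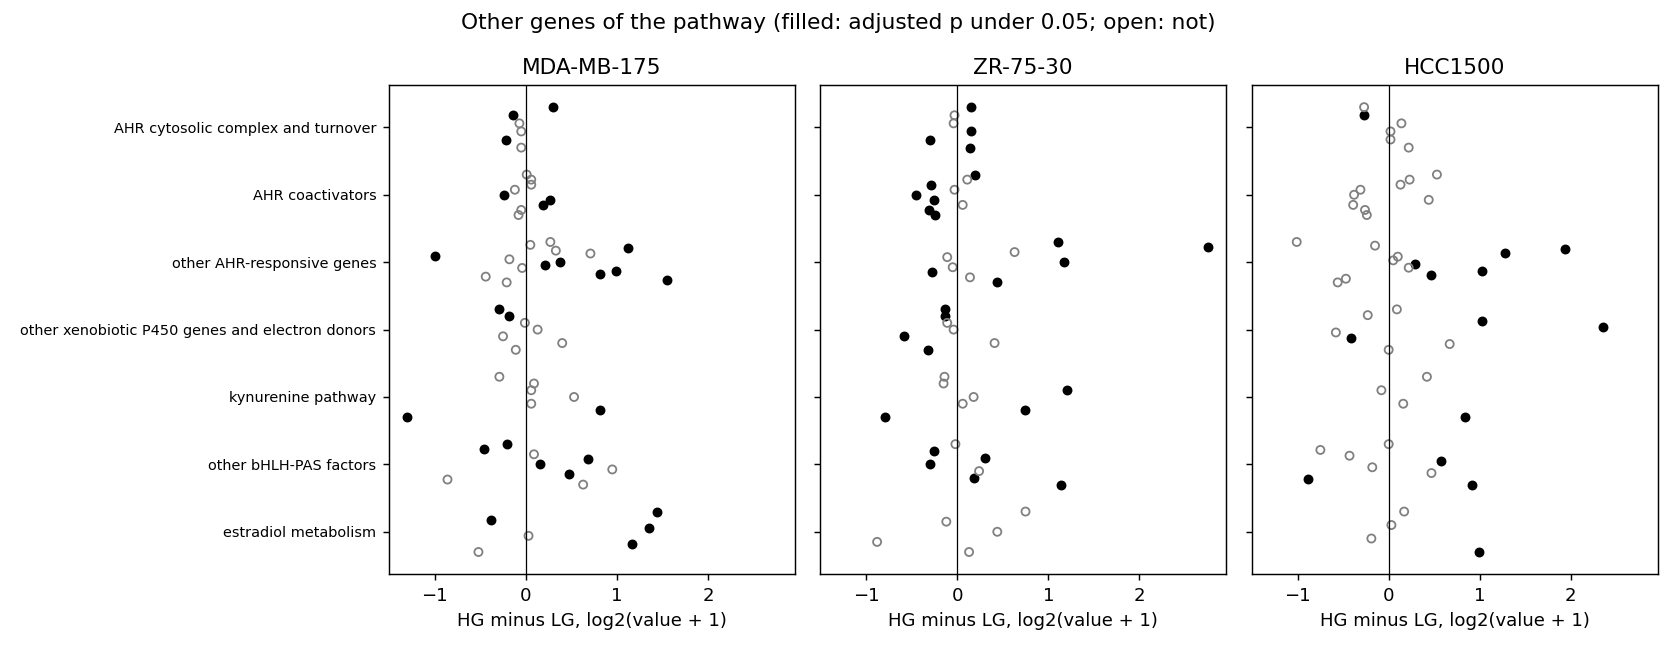
Difference between HG and LG on the log2(value + 1) scale (x axis) for each tested gene of 7 fixed lists (y axis), 1 panel per line; filled points had a limma adjusted p under 0.05 and open points had not. The farthest point to the right is AREG in ZR-75-30 at 2.75, and the genes listed as AHR coactivators stay within 1 unit of 0 in all 3 lines.

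A list of 6 genes covered the cytosolic complex that holds AHR and ligases linked to AHR. It gave 1 rise and 2 falls in MDA-MB-175, and 3 rises and 1 fall in ZR-75-30. HCC1500 had 0 rises and 1 fall, or 1 rise and 5 falls without HG3. The co-chaperone PTGES3 fell in MDA-MB-175 (log2 change -0.22 ± 0.04, limma adjusted p = 4.1e-04) and ZR-75-30 (-0.30 ± 0.04, limma adjusted p = 3.0e-06). CUL4B, the scaffold of a ligase that uses AHR as a subunit, rose in MDA-MB-175 (0.30 ± 0.05, limma adjusted p = 1.9e-04) and ZR-75-30 (0.15 ± 0.04, limma adjusted p = 0.00621). In HCC1500 the HG cultures lay below the LG cultures in CUL4B (-0.27 ± 0.08, limma adjusted p = 0.053), and it was called lower without HG3 (-0.21, limma adjusted p = 1.4e-04). DDB1, its adaptor, fell in MDA-MB-175 (-0.14 ± 0.04, limma adjusted p = 0.0218) and HCC1500 (-0.27 ± 0.07, limma adjusted p = 0.024, and -0.29 without HG3), and HSP90AB1 rose in ZR-75-30 by 0.15 ± 0.04 (limma adjusted p = 0.00378). HSP90AB1 had 0.02 ± 0.11 in HCC1500, and without HG3 it was called lower at -0.08 (limma adjusted p = 0.00456). The median change was -0.06 for MDA-MB-175, 0.06 for ZR-75-30 and 0.02 for HCC1500 (-0.16 without HG3). The count of 0 rises by limma in HCC1500 was also 0 at an unadjusted p under 0.05 and by edgeR, and 1 by DESeq2.

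The list of AHR coactivators held 9 genes, among them RB1 and the co-repressor NRIP1. Of these, 2 rose and 1 fell in MDA-MB-175, and 1 rose and 5 fell in ZR-75-30. In HCC1500 0 rose and 0 fell, or 4 rose and 1 fell without HG3. NCOA2, a p160 coactivator, fell in MDA-MB-175 (-0.24 ± 0.07, limma adjusted p = 0.013) and ZR-75-30 (-0.45 ± 0.05, limma adjusted p = 7.6e-07). NCOA3, its relative, and NRIP1, a nuclear receptor co-repressor, rose in MDA-MB-175 by 0.27 and 0.19 (limma adjusted p = 5.7e-04 and 0.0487). NCOA3 went the other way in ZR-75-30 (-0.26 ± 0.05, limma adjusted p = 4.1e-04). In HCC1500 it had 0.44 ± 0.25 and was not called, and without HG3 it was called higher at 0.74 (limma adjusted p = 4.0e-13). In ZR-75-30 the acetyltransferase CREBBP rose by 0.20 (limma adjusted p = 0.00127) and RB1, the retinoblastoma protein that also binds AHR, fell by 0.31 on the log2 scale (limma adjusted p = 1.2e-04). The median log2 change was 0.01 for MDA-MB-175, -0.24 for ZR-75-30 and -0.24 for HCC1500 (-0.02 without HG3). For the HCC1500 count of 0 by limma, 1 gene was higher and 1 lower at an unadjusted p under 0.05, edgeR called 0 and DESeq2 called 1 higher and 1 lower.

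The kynurenine pathway makes AHR ligands from tryptophan. KYNU, which cleaves kynurenine, rose in all 3 lines. It went from 255.8 ± 12.4 to 448.5 ± 24.1 in MDA-MB-175, from 23.17 ± 4.21 to 39.66 ± 8.36 for ZR-75-30 and from 4.431 ± 0.682 to 9.008 ± 3.13 for HCC1500 (limma adjusted p = 2.9e-08, 0.00284 and 0.0463, and 0.0486 in HCC1500 without HG3). The KYNU call in HCC1500, where the level was low, was lost under 8 of 16 alternatives. TDO2, which starts the pathway from tryptophan, fell in MDA-MB-175 (17.18 ± 3.5 to 6.361 ± 1.27, limma adjusted p = 4.3e-04) and ZR-75-30 (55.42 ± 5.18 to 31.92 ± 5.03, limma adjusted p = 2.2e-04). IDO1, another entry enzyme, was under the filter in every line, and IDO2 was not in the table. CCBL1, listed under this older symbol of KYAT1, rose in ZR-75-30 from 13.12 ± 2.08 to 31.8 ± 5.47 (limma adjusted p = 5.7e-05). Its log2 change was -0.08 ± 0.22 in HCC1500, and without HG3 it was called lower at -0.30 (limma adjusted p = 0.0323). The list counted 1 rise and 1 fall among 7 tested genes in MDA-MB-175, 2 and 1 among 7 in ZR-75-30, and 1 and 0 among 4 in HCC1500, or 1 and 1 without HG3. The 0 falls by limma in HCC1500 were also 0 at an unadjusted p under 0.05, by edgeR and by DESeq2. The median log2 change was 0.06 for MDA-MB-175, 0.06 for ZR-75-30 and 0.29 for HCC1500 (0.21 without HG3).

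Other bHLH-PAS factors, some of which share ARNT with AHR, gave 3 rises and 2 falls among 9 genes in MDA-MB-175, 3 and 2 among 7 in ZR-75-30, and 2 and 1 among 8 in HCC1500, or 2 and 3 without HG3. EPAS1, the hypoxia factor that pairs with ARNT, rose in MDA-MB-175 (3028 ± 158 to 4843 ± 84.6, limma adjusted p = 7.6e-09), ZR-75-30 (778.3 ± 18.9 to 968.1 ± 35.8, limma adjusted p = 3.2e-06) and HCC1500 (187.3 ± 14.7 to 282.0 ± 38.1, limma adjusted p = 0.0106, log2 change 0.58, and 0.68 without HG3). HIF1A, its relative, rose in MDA-MB-175 (0.16 ± 0.04, limma adjusted p = 0.0116), fell in ZR-75-30 (-0.30 ± 0.04, limma adjusted p = 2.7e-06) and had -0.18 ± 0.24 in HCC1500 (0.09 without HG3, not called). The circadian factor NPAS2 rose in MDA-MB-175 (0.48 ± 0.05, limma adjusted p = 4.6e-06) and ZR-75-30 (0.18 ± 0.06, limma adjusted p = 0.0241) and fell in HCC1500 (-0.89 ± 0.12, limma adjusted p = 0.00131, and -0.91 without HG3), while the clock genes ARNTL (-0.21 ± 0.07) and ARNTL2 (-0.46 ± 0.10) fell in MDA-MB-175 (limma adjusted p = 0.0463 and 0.00325) and CLOCK fell in ZR-75-30 (-0.25 ± 0.05, limma adjusted p = 9.1e-04). SIM2 was low and rose in ZR-75-30 (4.11 ± 1.96 to 9.948 ± 2.66, limma adjusted p = 0.00595) and HCC1500 (1.861 ± 0.0929 to 4.438 ± 0.757, limma adjusted p = 0.0136, and 0.021 without HG3). The median log2 change of the list was 0.16 for MDA-MB-175, 0.18 for ZR-75-30 and -0.09 for HCC1500 (0.04 without HG3).

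Among other P450 genes of foreign-compound metabolism and their electron donors, 10 of the 14 listed symbols were in the table. In MDA-MB-175 0 of 7 tested genes rose and 2 fell, and in ZR-75-30 0 of 7 rose and 4 fell. In HCC1500 2 of 8 rose and 1 fell, or 2 and 4 without HG3. The median log2 change was -0.11, -0.13 and 0.04 in that order (-0.20 in HCC1500 without HG3). The 0 rises by limma stood beside 1 in MDA-MB-175 and 0 in ZR-75-30 at an unadjusted p under 0.05, and edgeR and DESeq2 called 0 in both. The rises were CYP2C8 (4.976 ± 0.437 to 30.16 ± 8.72, log2 change 2.35 ± 0.21, limma adjusted p = 1.9e-04, and 2.17 without HG3) and CYP2B6 (3.181 ± 0.64 to 7.803 ± 2.63, limma adjusted p = 0.0294, log2 change 1.03, and 1.25 without HG3), both of which have close paralogs. CYP2J2, an arachidonate epoxygenase, fell in ZR-75-30 (-0.59 ± 0.11, limma adjusted p = 3.0e-04) and HCC1500 (-0.41 ± 0.12, limma adjusted p = 0.0403, and -0.52 without HG3). POR, the reductase that passes electrons to CYP1A1 and CYP1B1, fell in ZR-75-30 (483.9 ± 27 to 387.3 ± 38.5, limma adjusted p = 4.2e-04). Its log2 change was -0.11 ± 0.07 in MDA-MB-175 (limma adjusted p = 0.307), and in HCC1500 it was -0.00 ± 0.20 with HG3 and -0.22 without it (limma adjusted p = 3.8e-04). CYB5A (-0.29 ± 0.06) and CYB5R3 (-0.18 ± 0.06), which carry electrons for P450 enzymes, fell in MDA-MB-175 (limma adjusted p = 0.00284 and 0.0279).

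Estradiol metabolism, where CYP1A1 and CYP1B1 make catechol estrogens, gave 3 rises and 1 fall among 6 genes in MDA-MB-175, 0 and 0 among 5 in ZR-75-30, and 1 and 0 among 4 in HCC1500, or 2 and 0 without HG3. The median log2 change was 0.60, 0.13 and 0.10 in that order (0.13 in HCC1500 without HG3). The 0 rises by limma in ZR-75-30 and the 0 falls in HCC1500 were also 0 at an unadjusted p under 0.05, by edgeR and by DESeq2. The 0 falls by limma in ZR-75-30 stood beside 2 at an unadjusted p under 0.05, 1 by edgeR and 0 by DESeq2. HSD17B1, which makes estradiol from estrone, rose in MDA-MB-175 (187.4 ± 14.6 to 479.0 ± 38.2, log2 change 1.35 ± 0.07, limma adjusted p = 9.1e-10), and the aromatase gene CYP19A1 rose there from close to the floor (1.259 ± 0.783 to 4.955 ± 1.16, limma adjusted p = 0.00446). ESR1, the estrogen receptor gene, fell in MDA-MB-175 (334.8 ± 3.59 to 257.7 ± 3.66, limma adjusted p = 2.7e-05), had a log2 change of -0.12 ± 0.05 in ZR-75-30 (limma adjusted p = 0.0553) and of 0.17 ± 0.12 in HCC1500, which was 0.29 and called higher without HG3 (limma adjusted p = 7.8e-09). SULT1E1, the estrogen sulfotransferase, rose in HCC1500 from 6.385 ± 2.17 to 13.39 ± 2.86 (limma adjusted p = 0.0351, log2 change 0.99, and 0.92 without HG3).

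Among the pathway genes, 53 calls were named by the fixed rule, and the further values of NCOA3, CUL4B, HSP90AB1, CCBL1, NPAS2 and AREG in other lines were added after they were seen. Of these 53 calls, 37 held under every alternative and 16 were lost under at least 1, without any change of sign. Those lost most often were ALDH3A1 in ZR-75-30 (12 of 15 alternatives), ARNTL in MDA-MB-175 (11 of 16), DDB1 in HCC1500 (10), CYP2B6 there (9), and CYP2J2, KYNU and NFE2L2 in HCC1500 and NRIP1 in MDA-MB-175 (8 each). CYB5R3 in MDA-MB-175 (6), SULT1E1 in HCC1500 (5) and DDB1 in MDA-MB-175 (4) were lost only when a single culture was left out. In HCC1500 the KYNU, DDB1, CYP2J2, NFE2L2 and CYP2B6 calls were lost when any single LG culture was left out and held without HG3. The calls of EPAS1 in HCC1500 with CPM scaling, SIM2 there with the replicate block, GSTA1 by DESeq2, and HIF1A without MDA-MB-175 HG replicate 2 and NCOA2 without HG replicate 4 of that line were each lost under that 1 alternative.

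Of the 13310 genes averaging 10 or more, the 5 whose log2(value + 1) followed CYP1A1 most closely over the 24 cultures were RP11-21L23.2 (Pearson's r = 0.968), RAB22A (0.966), C5orf4 (0.964), ZFAND1 (0.961) and IRF1 (0.960). Without HG3 RAB22A and C5orf4 (0.969 each) stayed among the 5, and RP11-21L23.2 (0.968), ZFAND1 (0.961) and IRF1 (0.961) gave way to CPD, PATL1 and MBNL2. RP11-21L23.2 was, like CYP1A1, lowest in ZR-75-30 and higher at HG in each line, with means of 195 and 468 in MDA-MB-175, 21.6 and 36.7 for ZR-75-30 and 88.1 and 253 for HCC1500. The genes most like AHR were RDX (0.981), MTUS1 (0.979) and COG3 (0.979), and those most like TIPARP were SLC25A36 (0.983), FBXO33 (0.980) and FMNL2 (0.979). Without HG3 the 3 genes for AHR were replaced by NAA50 (0.987), S100A4 (0.985) and RDH10 (0.983), and those for TIPARP became IGF2R (0.994), CD59 (0.987) and FMNL2 (0.984). These correlations are a description, since the 24 cultures come from 3 lines and the points share the differences between lines.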

How the data were processed

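RNA from 24 cultures was sequenced on an Illumina HiSeq, and groups were taken from the sample titles. The authors deposited 1 table of a signal per gene and sample for 18889 genes. The labels name edgeR and hg38, the study's methods name an older build for its tumors, and those methods give edgeR CPM with TMM factors as the normalization. The values of a sample summed to between 5559394 and 7594840, so they are not CPM, and the scaling behind this table is not given in the sources used here. Whole reads were recovered from the smallest steps of each sample (tolerance 0.1 read), and 9 lines with a split symbol were read from their end. Coordinates, on which no value depends, are GRCh37 from GENCODE release 44 lifted to that build, for Ensembl canonical transcripts.

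Each line was fitted on its 8 samples with limma 3.58.1 under R 4.3.3, using log2(value + 1) and a variance prior that follows intensity. A gene was tested if 4 or more samples had a value of 0.5 or more, and the threshold was a Benjamini-Hochberg adjusted p of 0.05. A second fit on 24 samples gave the line pairs and the interaction. The alternatives were edgeR 4.0.16 and DESeq2 1.42.0 on recovered reads, pseudocounts of 0.1 and 5, no filter, other scalings, the replicate number as a block, and leaving out each culture. The fits were tested on simulated data whose mean and spread were taken without HG3, so that test did not cover its departure. Of the replicates in a group no pair agreed within counting noise. Members and lists were chosen with earlier results of these data known. All 8 members were named in every line, with up to 2 rises and 2 falls per pathway list and line, and NQO1, ALDH3A1, HIF1A, NFE2L2, ESR1 and POR always. From the pathway lists 2 genes are not reported here, and the lists' counts and medians leave them out.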

Additional observations from a re-analysis of the deposited data

Results flagged for a closer look

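Gaps were examined within 45 groups of 4 cultures with a nonzero value for a member. In 3 of them, the gap of 1 culture to its nearest neighbour took up an unusually large share of the group's range. Independent, normally distributed values give such a gap in about 1 in 20 groups. The groups here share cultures and some hold only a few reads, so that rate cannot be applied to them. Nothing is read from the count. AHR in HCC1500 at HG had a gap of 0.926 of the range, from HG3 at 187.9 against 381.1 and above in the others. AHRR in MDA-MB-175 at LG had 0.841, from replicate 2 at 48.91. CYP1A2 in MDA-MB-175 at HG had 1.0, from 2 reads in replicate 1 and 0 in the others, which any lone nonzero count gives.

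An interaction F test of whether the glucose change differed between lines called 5 members, and the highest and lowest log2 changes were apart by 0.83 in AHR, 1.65 in AHRR, 0.46 in ARNT, 1.15 in CYP1A1 and 0.60 in TIPARP. The same test called 29.3% of all 18144 genes tested. Without HG3 it called 5 members again and 48.6% of 18127 genes. The members were chosen with their glucose changes known, so these results are a description and not evidence of a difference. Nothing is read from the count of members.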

How the results depend on the processing

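Members called between glucose conditions kept their direction and call under the 16 alternatives of each line. HCC1500 had 2 members called under every alternative except leaving out HG3, which gave 4 by adding AHR and TIPARP. Leaving out single cultures thus gave 2 to 4 members. Of all genes tested in HCC1500, 7.46% were called higher and 13.0% lower, or 20.9% and 37.7% without HG3. Nothing is read from the member counts. The number of genes called in HCC1500 was 3350, and leaving out single cultures gave 2015 to 9504, the highest without HG3. For the interaction the 5316 genes called became 4765 to 8809, again highest without HG3. With the replicate block 1964 genes were called in HCC1500. The numbers are not said to mark shared handling, deviations of same-numbered cultures correlated between -0.04 and 0.11, and 3, 1 and 3 of 8 cultures of MDA-MB-175, of ZR-75-30 and of HCC1500 correlated best with their own number; the block changed no member's call.

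Small differences that were not called turned sign. ARNT between conditions in HCC1500 was -0.03, but 0.03 by edgeR, 0.05 by DESeq2, 0.02 with median-of-ratios scaling, and -0.09 to 0.08 when single HG cultures were left out. In MDA-MB-175 it was 0.03, and -0.00 to 0.06 without single cultures. AHR between MDA-MB-175 and ZR-75-30 was 0.03, but -0.06 by edgeR, -0.05 by DESeq2 and -0.05 with median-of-ratios scaling. ARNT in that pair was -0.21 and called, but 0.03 and not called with CPM scaling. The interaction call of ARNT2 was gained under 8 of 32 alternatives and that of CYP1B1 under 2, without HCC1500 LG replicate 1 or 2. The cause of these changes was not tested. Depth limits CYP1A1, AHRR and ARNT2 in ZR-75-30, CYP1B1 in HCC1500 and CYP1A2 in every line.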
